A study of Mus musculus with 8 samples.

Results

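The ISG15 conjugation system was followed through 5 genes, which are the modifier Isg15, its activating enzyme (E1) Uba7, its conjugating enzyme (E2) Ube2l6, its ligase (E3) Herc6 and its deconjugating protease Usp18. They were taken by symbol, and 5 of 5 were found among the 49492 rows of the deposited table. They were chosen by their role and by their measured values in these groups, with the differences between genotypes and media known, so their levels and differences are given as a description with no test. All 5 passed the filter on low values, which left 16232 genes in the fits.

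The RNA-seq libraries came from mouse embryonic fibroblasts (MEFs), which are cultured connective tissue cells, here of an immortalised line carrying floxed Pontin alleles. Pontin, the product of Ruvbl1, is an ATPase found in complexes that remodel chromatin. In both genotypes the endogenous Pontin had been deleted by a Cre virus and replaced by a lentiviral Flag-tagged copy, either wild type (WT) or the R333A/R339A form (RA), in which the arginines methylated by CARM1 are alanine. Cells grew in normal medium or were starved in a glucose-free medium with dialysed serum, and the length of the starvation behind the libraries is not given in the sources used here. The 4 groups were WT and RA in normal medium and WT and RA under glucose starvation, with 2 replicates each and 8 libraries in all. Each genotype is 1 stably expressing line, so the Pontin form and the line cannot be told apart. Nothing in the labels says that replicates came from separate cultures, so their spread may be technical.

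ISG15 is a ubiquitin-like protein that is induced by type I interferon. Like ubiquitin it is activated by an E1, handed to an E2 and attached to lysines of target proteins with the help of an E3, and a specific protease takes it off again. In mouse cells HERC6 is the main E3 for ISG15, in the place that HERC5 holds in human cells. USP18 has a further role as a brake on the type I interferon receptor, where it binds the receptor chain IFNAR2 together with STAT2. Genes of this kind are switched on by ISGF3, a complex that includes STAT2 and IRF9 and binds the interferon-stimulated response element in their promoters.

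The promoter of Isg15 is shown because it carries that element in its plainest form. The sequence is the 250 bases before the annotated start of Isg15 in RefSeq, from chr4:156200819-156201068 of GRCm38.p6 on the minus strand, with capitals marking the stretch covered by matches to GAAA, 2 bases of any kind, and GAAA again.
Isg15: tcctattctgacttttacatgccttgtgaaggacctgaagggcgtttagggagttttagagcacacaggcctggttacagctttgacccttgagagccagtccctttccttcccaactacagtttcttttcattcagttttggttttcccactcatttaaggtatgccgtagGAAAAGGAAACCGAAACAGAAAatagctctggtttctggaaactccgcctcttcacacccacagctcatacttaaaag
This motif was searched on both strands in the windows of 250 bases before and 50 bases after each start. The Isg15 window held 3 matches, each overlapping the next and all on the strand of the gene, and the nearest one ended 57 bases before the start. The motif was found in 1131 of 32851 windows, or 3.44%. Windows were found for 4 of the 5 genes, and of these the Isg15 window alone held a match. With a looser motif of AAA, 2 bases of any kind and GAAA, chosen after the data had been seen, 10.6% of all windows and 2 of the 4 held a match. The added one was TTTCACTTT in the window of Uba7, on the strand opposite to the gene, 19 bases before the start. These are matches of letters in a window, and binding was not measured. Usp18 was not matched in the table of promoters.

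In these cells the 5 genes shared the order of WT below RA, but their responses to starvation in RA differed. Each was lowest in starved WT, intermediate in WT in normal medium and higher in both RA groups. In WT, starvation lowered the means between 1.98-fold for Herc6 and 12.1-fold for Ube2l6. In RA, starvation raised Uba7 and Herc6 by more than 2-fold, raised Isg15 and Usp18 slightly, and left the Ube2l6 libraries overlapping. Levels are in CPM, which are read counts scaled to a common library total, with a further factor per sample that the authors applied, and between 43205841 and 56363034 reads were recovered per library.

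Isg15, the modifier, stood at 103.5 and 105.9 CPM in WT grown in normal medium and at 12.4 and 11.1 CPM in the starved WT libraries. In RA it stood at 319.8 and 326.8 CPM in normal medium and at 424.1 and 403.4 CPM under starvation. The 4 groups did not overlap, and the order ran from starved WT through WT and RA in normal medium to starved RA. Between the means, RA was 3.09-fold above WT in normal medium and 35.2-fold above it under starvation. Fitted on log2(value + 1), with the standard error (SE) from all 8 libraries, these differences were 1.62 and 5.02 with an SE of 0.049 each. The starvation response of Isg15 was -3.05 in WT and 0.35 in RA on the same scale, again with an SE of 0.049. The starved WT libraries held 594 and 606 reads of Isg15, so this drop lay well above the counting limit of 3 reads.

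Uba7, the E1 that is dedicated to ISG15, was a much scarcer transcript. Its values were 14.9 and 14.1 CPM in WT in normal medium, 2.68 and 3.11 CPM in starved WT, 28.8 and 28.4 CPM in RA in normal medium, and 74.04 and 74.97 CPM in starved RA. The groups again did not overlap. Of the 5 genes Uba7 had the highest fold between starved RA and RA in normal medium, at 2.61-fold between the means, while in WT starvation took it the other way. The fitted log2 differences were 0.94 for RA against WT in normal medium, 4.28 for the same under starvation, -1.99 for starvation in WT and 1.35 for starvation in RA, with an SE of 0.075. By GENCODE M21 (GRCm38, a later build than the mm9 of the authors), 233 exonic bases of Uba7 (3.48%) are shared with Gm20661 on the same strand. Gm20661 stood at 18.4 ± 0.11 CPM (SD, n = 2) in WT in normal medium, 6.49 ± 0.21 in starved WT, 21.6 ± 1.4 in RA in normal medium and 19.6 ± 0.35 in starved RA. It was thus above Uba7 in both WT groups and at 26.3% of it in starved RA, and how shared reads were counted is not stated.

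Ube2l6, the E2, had the largest ratio between the WT means, at 12.1-fold, although the fitted differences of Usp18 and Isg15 for starvation in WT were larger. It was measured at 17.9 and 16.2 CPM in WT in normal medium and at 1.13 and 1.68 CPM in starved WT, which rest on 54 and 92 reads. Most low counts were even numbers, as when mates of a pair are counted separately, so these were also taken as 27 and 46 pairs. The exact Poisson 95% intervals over pairs, which cover counting error only, ran from 0.746 to 1.65 CPM and from 1.23 to 2.24 CPM. In RA it was at 41.5 and 43.9 CPM in normal medium and at 40.5 and 41.7 CPM under starvation, so that the RA groups overlapped. The log2 differences were 1.28 and 4.14 for RA against WT in normal and starved cells and -2.91 for starvation in WT, with an SE of 0.097. The starvation difference in RA was -0.05, smaller than this SE. Between the means, starved RA was 29.2-fold above starved WT, which is more than the fitted difference gives because adding 1 to a value near 1 compresses it.

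Herc6, the E3, had the smallest differences of the 5 between the genotypes and for starvation in WT, but not for starvation in RA, where only Uba7 was above it. Its values were 19.3 and 18.3 CPM in WT in normal medium, 9.18 and 9.83 CPM in starved WT, 31.0 and 28.5 CPM in RA in normal medium, and 68.0 and 66.4 CPM in starved RA, with no overlap between groups. Starved RA was 7.07-fold above starved WT and 2.26-fold above RA in normal medium. The log2 differences were 0.64 and 2.70 for RA against WT in normal and starved cells, -0.91 for starvation in WT and 1.15 for starvation in RA, with an SE of 0.066. Herc6 shares 1269 exonic bases (13.7%) with the transcript Gm45193 on the same strand. Gm45193 was measured at 97.1% and 98.9% of Herc6 in the WT groups, in normal medium and starved, but at 85.2% and 57.2% of it in the RA groups. Reads over the shared bases cannot be assigned to either, so the Herc6 values are uncertain by an amount that is not known. This limit holds for every comparison of Herc6 below.

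Usp18, the protease that removes ISG15, followed the modifier closely. It stood at 95.4 and 96.8 CPM in WT in normal medium, 9.14 and 8.95 CPM in starved WT, 236.1 and 236.0 CPM in RA in normal medium, and 290.9 and 284.5 CPM in starved RA. The groups did not overlap. Starvation lowered it 10.6-fold in WT, and starved RA was 31.8-fold above starved WT. The log2 differences were 1.29 and 4.85 for RA against WT in normal and starved cells, -3.27 for starvation in WT and 0.28 for starvation in RA, with an SE of 0.040. A noncoding gene on the other strand, Gm44148, shares 124 exonic bases with Usp18, and its values were between 74.7% and 77.4% of those of Usp18 in every group. The libraries are not stated to have been counted by strand, so reads of the pair cannot be told apart.

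**Figure D1:**
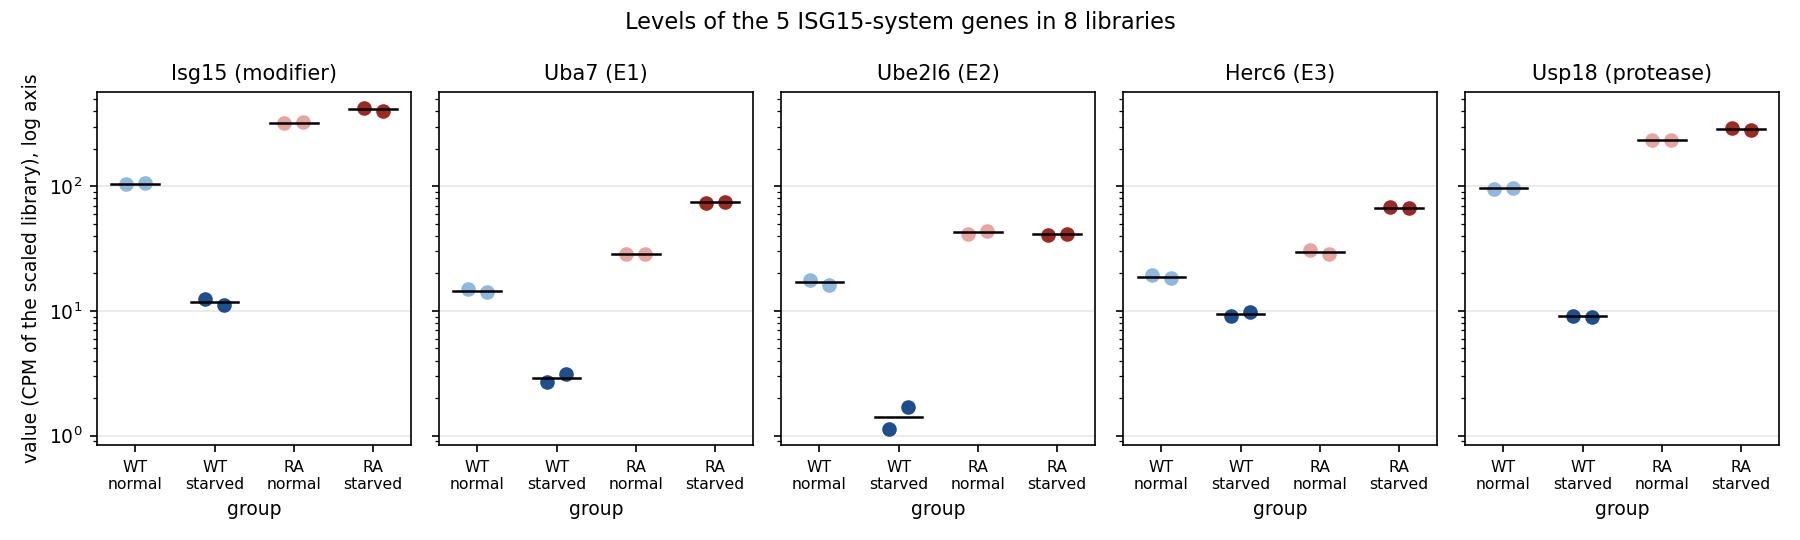
Each panel plots 1 gene of the ISG15 system, with the 4 groups on the x axis and the value in CPM of the scaled library on a log y axis. Points are the 8 libraries and lines are group means. Starved WT is lowest in every panel, and the RA libraries lie above both WT groups throughout.

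The fits over all genes place these values. A gene was called when the limma p-value, adjusted by Benjamini-Hochberg (BH) over the 16232 genes of a comparison, was under 0.05. Since the 5 genes were chosen with these comparisons known, the counts are printed beside the share of all genes and nothing is read from them. In normal medium 5 of 5 were called higher in RA than in WT, where 9.63% of all genes were called and 6.68% were called higher. The share of higher among called genes depended on the scaling. It was 69.4% as deposited, 58.5% with median-ratio scaling, 52.6% after quantile normalization and 40.5% when scaled to total reads. A fitted difference of at least 2-fold was reached by 3 of the 5, Isg15, Ube2l6 and Usp18, and by 0.505% of all genes in that direction. Under starvation 5 of 5 were called higher in RA and all were at least 2-fold higher. Over all genes 62.9% were called in that comparison, 30.8% were called higher and 5.45% were at least 2-fold higher.

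The starvation response was then set side by side in the genotypes. In WT 5 of 5 were called lower, against 78.6% of all genes called and 39.2% called lower. In 4 of the 5, all but Herc6, the drop was at least 2-fold, as in 11.7% of all genes. In RA 4 of the 5 were called higher, where 68.7% of all genes were called and 35.0% were called higher. Of these Uba7 and Herc6 were at least 2-fold higher, as were 4.44% of all genes. The median of the 5 fitted differences was -2.91 in WT and 0.35 in RA, beside medians over all genes of 0.0049 and 0.013.

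The interaction, which is the starvation response in RA less that in WT, gathers both. It was 3.56 for Usp18 (SE 0.056), 3.41 for Isg15 (SE 0.069), 3.34 for Uba7 (SE 0.11), 2.86 for Ube2l6 (SE 0.14) and 2.06 for Herc6 (SE 0.094). From the highest down, these values took places 25, 30, 38, 63 and 139 among the 16232 genes. All 5 were called with a higher response in RA and all exceeded 2-fold, beside 50.6% of all genes called, 24.5% called in that direction and 5.06% at least 2-fold in that direction. The median of the 5 was 3.34 and that of all genes was -0.011. The comparisons share libraries, so they are not separate evidence.

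**Figure D2:**
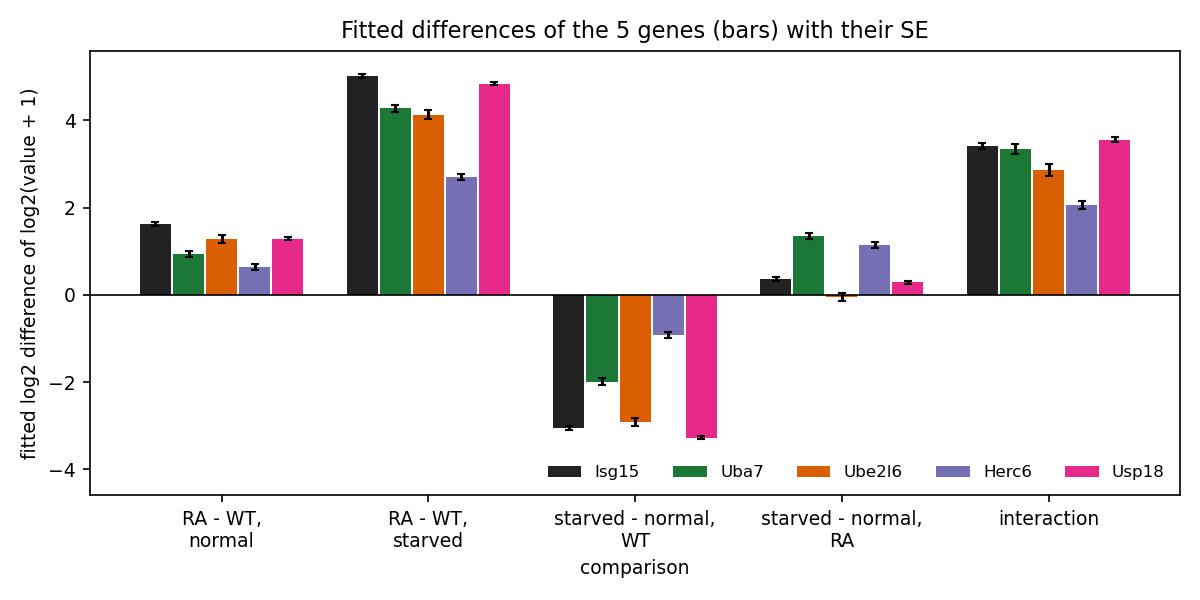
Bars give the fitted difference of log2(value + 1) for each of the 5 genes in the 5 comparisons on the x axis, and error bars give 1 SE of the fit over 8 libraries. The difference between RA and WT under starvation is the tallest bar of every gene, and the starvation response points down in WT and, except for Ube2l6 at -0.05, up in RA.

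The proportions of the system were not constant. The value of each enzyme was divided by that of Isg15 in the same library, which removes the scaling of the library but not the lengths of the genes. In proportion to its level Usp18 varied least, at 91.8% ± 0.52 (SD, n = 2) of Isg15 in WT in normal medium, 77.1% ± 5.3 in starved WT, 73.0% ± 1.1 in RA in normal medium and 69.6% ± 1.4 in starved RA. Herc6 varied most, since it was at 18.0% ± 0.92 in WT in normal medium but at 81.3% ± 11 in starved WT, where it fell much less than Isg15 did. In RA it was at 9.21% ± 0.68 in normal medium and at 16.2% ± 0.30 under starvation.

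Uba7 was at 13.8% ± 0.76 of Isg15 in WT in normal medium, 24.8% ± 4.6 in starved WT, 8.84% ± 0.22 in RA in normal medium and 18.0% ± 0.80 in starved RA. In both genotypes the starved libraries lay above those in normal medium. Ube2l6 went the other way in RA, from 13.2% ± 0.33 in normal medium to 9.93% ± 0.56 under starvation. In WT it was at 16.3% ± 1.4 in normal medium and 12.1% ± 4.3 under starvation, and the libraries nearest to each other, at 15.3% and 15.2%, all but met. The ratios were not tested.

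**Figure D3:**
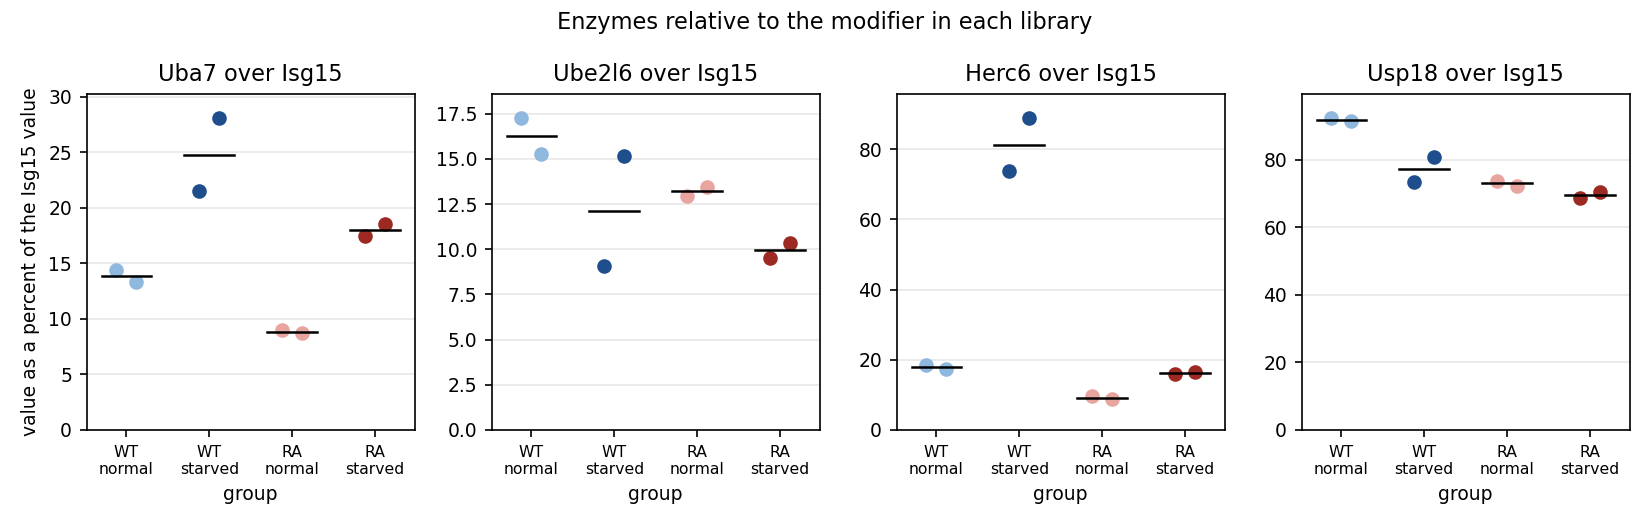
The y axes, which start at 0 and differ between panels, give the value of each enzyme as a percent of the Isg15 value in the same library, with the 4 groups on the x axes. Points are libraries and lines are group means. Herc6 in starved WT stands far above its other groups, at 81.3%, while Usp18 stays between 69.6% and 91.8% in the group means.

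To compare genes with each other, values were divided by the length of the longest coding transcript in GENCODE M21. Per kilobase, Isg15 was the most abundant in every group, at 138 ± 2.2 CPM per kb (SD, n = 2) in WT in normal medium, 15.6 ± 1.3 in starved WT, 428 ± 6.6 in RA in normal medium and 547 ± 19 in starved RA. Usp18 came next, at 54.3 ± 0.55, 5.11 ± 0.073, 133 ± 0.036 and 162 ± 2.6 CPM per kb in the same order of groups. In 3 of the 4 groups Ube2l6, Uba7 and Herc6 followed in that order, and in RA in normal medium their levels were 27.4 ± 1.1, 8.95 ± 0.088 and 6.25 ± 0.37 CPM per kb. In starved WT Herc6 was the third, at 1.99 ± 0.097 CPM per kb, ahead of Uba7 at 0.906 ± 0.094 and Ube2l6 at 0.901 ± 0.25, and the last pair did not differ beyond their spread. The lead of Isg15 over Usp18 depends on the length used, since in WT in normal medium it was 2.55-fold per kb of coding transcript and 4.02-fold per kb of all exonic bases.

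The genes most like each member were sought among 12098 tested genes with a mean of at least 5 CPM. Likeness was the root mean square (RMS) difference between log2(value + 1) profiles, each centred on its mean over the 8 libraries. For Isg15 the closest was Oas3, an oligoadenylate synthetase, at 0.061, followed by the chemokine gene Cxcl10 at 0.128 and Art3 at 0.130. Cxcl10 and Art3 lie on opposite strands, share 133 exonic bases and had nearly equal mean values over the 8 libraries, 101.1 and 104.4 CPM. Usp18 came 4th for Isg15, at 0.156.

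For Usp18 the closest was its antisense neighbour Gm44148 at 0.044, then the antiviral GTPase gene Mx2 at 0.135 and Mndal at 0.142, with Isg15 in 6th place. For Ube2l6 they were Dhx58, which encodes the RNA sensor LGP2, at 0.130, and the guanylate-binding protein gene Gbp7 at 0.134. Uba7 was nearest to Gvin1 at 0.190, Gm4070 at 0.191 and Oas2 at 0.198, and Herc6 to A930015D03Rik at 0.104, Serpinb9b at 0.108 and the chemokine gene Ccl5 at 0.129. A930015D03Rik shares 1003 exonic bases with H2-T22 on the other strand. Gvin1 and Gm4070 had nearly equal mean values over the 8 libraries, 106.6 and 105.4 CPM, so they may not be separate neighbours of Uba7. Whether they share reads was not tested.

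The 5 genes were thus not each other's closest neighbours. Herc6 was 1.16 RMS away from Isg15 and in 147th place for it. For Herc6, Isg15 at the same distance was in 10070th place of 12098. Uba7 was in 55th place for Isg15, at 0.632, and Ube2l6 in 25th, at 0.367. The closest pair within the system was Isg15 with Usp18. The likeness has no p-value because the 8 libraries fall into 4 groups that the genes share.

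A list of 12 further genes covered proteins that handle ISG15 by another route, the receptor for free ISG15 and partners of USP18, and 11 of them were tested. The integrin chain Itgal stayed under 0.09 CPM and was not tested. In normal medium 2 of 11 were called, Trim25 and Stat2, both higher in RA, and between the starved genotypes 4 were called higher and 2 lower. Under starvation 4 were called higher and 6 lower in WT, and 4 higher and 4 lower in RA. The interaction was called for 5 of 11, with 4 higher and 1 lower and a median of 0.038 over the list. The share called was 18.2% in normal medium, 54.5% between the starved genotypes and 45.5% for the interaction, beside 9.63%, 62.9% and 50.6% of all genes. For starvation it was 90.9% in WT and 72.7% in RA, beside 78.6% and 68.7% of all genes.

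Trim25, an ISG15 E3 that is also a ubiquitin ligase, stood at 95.3 ± 4.3 CPM (SD, n = 2) in WT in normal medium, 37.8 ± 0.71 in starved WT, 125.1 ± 3.1 in RA in normal medium and 119.0 ± 3.2 in starved RA. Its interaction was 1.24 (SE 0.064, limma BH-adjusted p = 8.10e-11), beside 2.06 for Herc6. Another ISG15 ligase gene, Arih1, went the other way, and its interaction was -0.33 (SE 0.056, limma BH-adjusted p = 1.03e-04). Beside Usp18, the interaction of proteases that can also act on ISG15 was 0.23 for Usp5 (SE 0.056, limma BH-adjusted p = 0.00243) and 0.30 for Usp14 (SE 0.059, limma BH-adjusted p = 4.76e-04), and it was not called for Usp2, Usp13 or Usp21. Ifnar2, the docking site of USP18 on the receptor, was at 30.3, 43.0, 33.0 and 46.6 CPM in WT normal, WT starved, RA normal and RA starved, with no call in the interaction. The integrin chain Itgb2 and the ubiquitin ligase subunit Skp2 were not called in it either. All the gene lists were chosen with earlier results of these data known, so the p-values here and below are a description.

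The ISGF3 genes Stat2 and Irf9 and the interferon beta gene Ifnb1 were also chosen with their values known, so their values are a description with no p. Each was higher in RA than in WT in both media, lower in WT under starvation and higher in RA under starvation. Stat2 stood at 128.4 ± 1.3 CPM (SD, n = 2) in WT in normal medium, 31.8 ± 2.7 in starved WT, 215.1 ± 4.5 in RA in normal medium and 301.4 ± 1.8 in starved RA. The interaction was 2.47 for Stat2 (SE 0.068) and 1.71 for Irf9 (SE 0.061). Ifnb1 was scarce, with 34 and 36 reads for WT in normal medium, 10 and 12 for starved WT, 90 and 118 for RA in normal medium, and 234 and 176 for starved RA. Its interaction was 1.19 (SE 0.19), on a scale that compresses values under 1. Ifnb1 passed the filter on low values only through its RA libraries, since its WT libraries were all under 1 CPM.

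Ubiquitin and its other relatives use the same kinds of enzymes, and 109 of them were listed by role for comparison, of which 108 were in the table and 103 passed the filter. Of the 103 relatives, 0 were at least 2-fold apart between the starved genotypes or in the interaction, beside 5 of 5 ISG15 genes. The 5 had been chosen with these differences known, so nothing is read from this contrast. Over all genes 5.45% were at least 2-fold higher and 1.25% lower between the starved genotypes, and 5.06% and 1.06% in the interaction. The largest fitted difference between RA and WT among the relatives was 0.82, for Ube2c under starvation. Their medians were 0.0061 in normal medium, -0.10 under starvation and -0.12 for the interaction. In normal medium 9 relatives were called, or 8.74% of the 103, beside 9.63% of all genes. All 9 were higher in RA, but 5 were called higher and 6 lower when libraries were scaled to total reads. Under starvation 19 were called higher and 49 lower in RA, and in the interaction 13 higher and 40 lower (21 and 35 when scaled to total reads). These are 66.0% and 51.5% of the 103, beside 62.9% and 50.6% of all genes.

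In the response to starvation itself 7 of 103 relatives were at least 2-fold apart in WT, 4 higher and 3 lower. In RA 6 were, 3 higher and 3 lower. Over all genes 7.84% were at least 2-fold higher and 11.7% lower in WT, and 4.44% and 4.58% in RA. In WT, Ube2c stood at -2.93, beside -2.91 for Ube2l6. Role by role, the interaction of the nearest counterparts was as follows. Against Isg15 at 3.41, the interaction of ubiquitin genes was -0.66 for Ubb (SE 0.063, limma BH-adjusted p = 2.26e-07) and -0.39 for Rps27a (SE 0.057, limma BH-adjusted p = 2.83e-05). Over all other modifiers 1 of 13 was called higher and 9 lower, or 76.9% called. Beside this, 50.6% of all genes were called, 24.5% higher and 26.1% lower. Against Uba7, the main ubiquitin E1 gene Uba1 stood at 473.7 ± 23 and 297.2 ± 0.76 CPM (SD, n = 2) in normal and starved WT and at 467.4 ± 19 and 288.9 ± 7.3 CPM in RA, with no call in the interaction. Among the 9 other E1 enzymes 2 were called higher and 3 lower, or 55.6% called, which is near the share of all genes. The highest was 0.66 for Uba6 (SE 0.072, limma BH-adjusted p = 1.15e-06). Against Ube2l6, the ubiquitin E2 closest to it, Ube2l3, stood at 194.0 ± 2.8 and 148.6 ± 5.7 CPM in normal and starved WT and at 203.9 ± 13 and 156.6 ± 0.72 CPM in RA, also with no call. Among the 34 other E2 genes the interaction ran from 0.92 for Ube2c (SE 0.071, limma BH-adjusted p = 1.57e-08) to -0.67 for Cdc34 (SE 0.072, limma BH-adjusted p = 8.89e-07). Ubb, Ube2c and Cdc34, and Usp35 and Usp15 below, were picked as extremes among genes called in this comparison. Their small p-values were thus fixed by the choice. Uba6 was named as a counterpart but was also such an extreme, so its p-value has the same limit.

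Against Herc6, 0 of 4 other HERC genes were called in the interaction by limma, edgeR or DESeq2, and 1 had an unadjusted limma p under 0.05. By limma 50.6% of all genes were called. Herc3, a small HERC like Herc6, was at 13.2 ± 0.064, 12.1 ± 0.42, 12.7 ± 0.047 and 9.41 ± 1.1 CPM (SD, n = 2) in WT normal, WT starved, RA normal and RA starved. Herc4 had group means of 39.4 to 50.4 CPM, Herc1 of 47.8 to 58.8 CPM and Herc2 of 43.5 to 59.2 CPM. Against Usp18, 6 of 43 other USP proteases were called higher and 16 lower, or 51.2% called, which is near the share of all genes. Those called ran from Usp35 at 0.75 (SE 0.14, limma BH-adjusted p = 2.52e-04) to Usp15 at -0.57 (SE 0.056, limma BH-adjusted p = 3.00e-07).

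**Figure D4:**
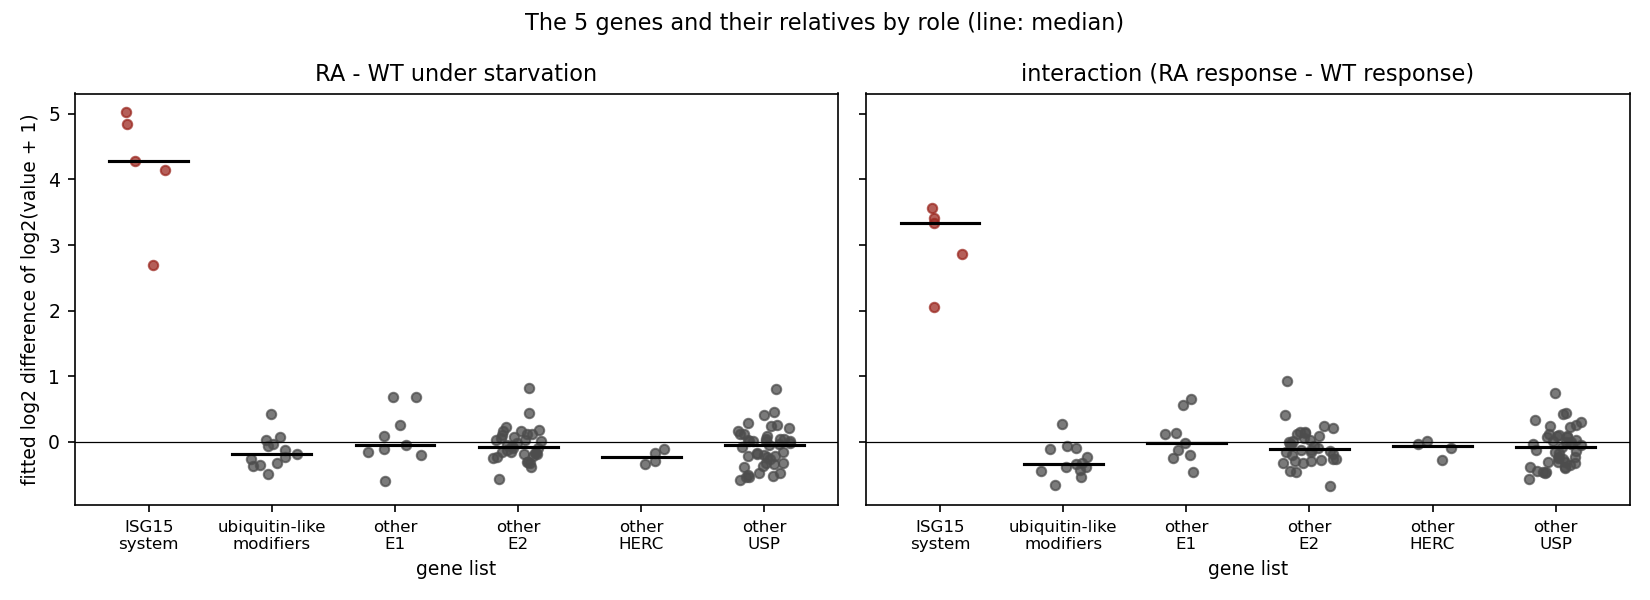
Points are genes, placed by role on the x axis, and the y axis is the fitted difference of log2(value + 1) for RA against WT under starvation on the left and for the interaction on the right. Lines are medians. The 5 genes of the ISG15 system were chosen with these values known and lie between 2.06 and 5.02, while the 103 relatives lie between -0.67 and 0.92.

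The labelled cell type was checked with marker genes. Of 10 fibroblast markers, 9 were at 1 CPM or more in every library, with sums of 10007 to 10087 CPM in WT in normal medium, 5313 to 5406 in starved WT, 9918 to 10246 in RA in normal medium and 7042 to 7059 in starved RA. Lum was under 1 CPM throughout. Of 12 immune markers, 10 were under 1 CPM in every library. Ptprc did not exceed 0.039 CPM, and Cd3e and Siglech were at 0 in all 8. The immune sums, mostly Csf1r, were 14.26 to 14.98 CPM in WT in normal medium, 24.7 to 25.7 in starved WT, 17.3 to 18.6 in RA in normal medium and 21.9 to 22.6 in starved RA. Of 8 epithelial and endothelial markers 4 were under 1 CPM throughout, and the sums were 4.58 to 4.83, 11.03 to 11.27, 3.95 to 5.26 and 9.02 to 9.21 CPM in the same order. The part of these shifts in the results was not tested. In bulk RNA, fewer cells that express a gene and less RNA per cell cannot be told apart.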

How the data were processed

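PolyA RNA libraries (TruSeq RNA v2) were sequenced by the authors in paired-end mode on the HiSeq 4000, and TopHat2 was used for mapping to mm9 (TopHat2 version 2.0.9 in the submitters' processing notes). The notes also name bedtools and edgeR with no role. Which tool counted reads, the annotation and the use of strand are not given in the sources used here. The deposited values are a signal, namely CPM computed by the authors on a library size adjusted for each sample, and the columns summed to 965845 to 1029723. Columns named minus and plus were taken to mean without and with glucose starvation, after the marks the study uses. In every library 100% of the values were whole multiples of 1 read within 0.02, so reads were recovered, and 3 reads, taken as the smallest count distinct from 0, were worth 0.0548 to 0.069 CPM. PCR copies were not marked, so this covers counting error only. Between 78.2% and 80.5% of counts from 1 to 9 were even, as counting the mates of a pair separately gives.

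Plain CPM had been planned for and the same test was used. Genes with at least 1 CPM in at least 2 libraries were fitted as log2(value + 1) with limma (version 3.58.1, R version 4.3.3), 1 mean per group over 8 libraries, eBayes with a trend, 2-sided, with BH adjustment over 16232 genes in each of 5 comparisons. A fold on this scale understates changes of low genes. edgeR (version 4.0.16) on the recovered reads called 1555 genes for RA against WT in normal medium and 8096 for the interaction, beside 1563 and 8207 by limma. The alternatives were the pseudocount, the filter, the scaling, the replicate block, the groups fitted, eBayes without the trend, edgeR, DESeq2 (version 1.42.0) and leaving out each library. Added after the data had been seen were edgeR on halved reads, the looser motif and length by all exonic bases.

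The 5 genes and the gene lists were chosen with earlier results of these data known. Named genes were the 5, all genes of the lists of ISG15-associated, HERC and ISGF3 genes, Ube2l3, Uba1, Uba6 and Rps27a, the extremes of the interaction among called genes of each other list, and the 3 nearest patterns of each member. A few of these genes are not reported here. Reads shared between overlapping genes could not be assigned. Replicates differed by more than sampling noise in every group, so each library was counted as 1 sample. Promoter sequences are from RefSeq on GRCm38.p6, and exon overlaps and lengths from GENCODE M21.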

Additional observations from a re-analysis of the deposited data

Results flagged for a closer look

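In 4 genes of the ISG15 system both libraries of starved WT lay below those in normal medium and both libraries of starved RA lay above. The response in RA less that in WT was 3.41 for Isg15, 3.34 for Uba7, 2.06 for Herc6 and 3.56 for Usp18 on the log2(value + 1) scale. The fit over all genes called each of them, but no p is given, because the genes had been chosen with the values known. Ube2l6 did not meet this description, since its RA libraries overlapped. How many of all genes meet it was not counted, so nothing is read from the count. Under starvation 39.2% of all genes were called lower in WT and 35.0% were called higher in RA.

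Among the other list genes named above, the limma interaction, with BH adjustment over all genes, was called in 14. Of these, Stat2 at 2.47, Irf9 at 1.71 and Ifnb1 at 1.19 had also been chosen with their values known. The response was higher in RA for them and for Trim25 at 1.24, Ube2c at 0.92, Usp35 at 0.75, Uba6 at 0.66, Usp14 at 0.30 and Usp5 at 0.23. It was lower in RA for Cdc34 at -0.67, Ubb at -0.66, Usp15 at -0.57, Rps27a at -0.39 and Arih1 at -0.33. Ube2c, Usp35, Cdc34, Ubb and Usp15 were picked as extremes among genes called in this comparison, so their calls were fixed by the choice. Uba6, named as a counterpart, was such an extreme too. The 14 are only the named ones, since 53 of 103 relatives and 5 of 11 ISG15-associated genes were called. Over all genes 50.6% were called in this comparison.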

How the results depend on the processing

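The counts of the 5 genes called and of those at least 2-fold apart stayed within 1.5 times their value in each comparison under each alternative that gave a value, and no fitted difference of the 5 changed sign. Over the alternatives the interaction ranged from 3.30 to 3.54 for Isg15, 3.21 to 3.73 for Uba7, 2.69 to 3.55 for Ube2l6, 1.94 to 2.19 for Herc6 and 3.54 to 3.73 for Usp18. A fit of only the groups compared gives no interaction.

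For RA against WT in normal medium the count over all genes was 590 with eBayes without the trend and 650 with no filter, instead of 1563, and ranged from 559 to 1706 when 1 library was left out. It was 559 without WT replicate 1, 830 without WT replicate 2 and 939 without RA replicate 2, all in normal medium. Among the relatives, 2 were called with eBayes without the trend and 3 with no filter, instead of 9, and 1 to 13 when 1 library was left out, with 1 without WT replicate 1 and 3 without RA replicate 2. The cause was not tested. With the looser motif 2 promoter windows matched instead of 1, and with all exonic bases the ratio of Isg15 to Usp18 in WT in normal medium was 4.02 instead of 2.55.

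Replicate numbers are shared by the groups, but same-numbered libraries did not deviate together in every pair of groups (correlations of -0.0076 to 0.16 across genes, and of -0.027 to 0.30 over genes with a mean above 10 CPM), so the numbers were not taken as pairs. With the replicate number as a block, 15 relatives were called in normal medium instead of 9. Over all genes 2059 instead of 1563 were called in normal medium and 8578 instead of 8207 for the interaction. Depth limits Ube2l6 and Ifnb1 in starved WT.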
